A study of Mus musculus with 4 samples.

Results

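The cytosolic ribosomal protein genes were followed across the tubule segments and the libraries of a mouse renal cortex Drop-seq series. Members were the protein-coding genes named Rpl or Rps with a number, together with Rplp0, Rplp1, Rplp2 and Rpsa, and pseudogenes were left out. In the GENCODE M21 annotation 84 genes met this rule, and 82 of them had at least 1 UMI, among 22078 genes detected in all. Of the 82, 50 belong to the large and 32 to the small ribosomal subunit. All 82 were detected in each of the 4 files, while Rpl10l and Rpl39l, retrogene copies known from the testis, had no UMI in any file.

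Drop-seq captures mRNA by its poly(A) tail in droplets and tags each molecule with a cell barcode and a unique molecular identifier (UMI). The libraries came from 2 Akita mice (C57BL/6-Ins2Akita/J, in which a germline mutation of Ins2, an insulin gene, leads to diabetes) and 2 wild-type mice, with 1 kidney's cortex, dispersed with collagenase IV, in each. Per the labels, ages were 116 and 119 days for Akita replicates 1 and 2 but 45 and 51 days for their wild-type counterparts, so genotype and age cannot be told apart. The labels' growth protocol gives 24 weeks of housing, which is longer than any of these ages, so the ages are uncertain. No treatment is named in the labels for either group.

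The files held 1016719 and 1200209 UMIs for Akita replicates 1 and 2, and 1303453 and 1115055 UMIs for wild-type replicates 1 and 2. After filtering, 311, 600, 564 and 441 cells were retained in the same order, 1916 in all. As many as 884 barcodes occurred both in the file of Akita replicate 2 and in that of Wild-type replicate 1, against 3 or 4 for every other pair of files. Of the cells retained, 73.0% in the first and 80.5% in the second carried one of them, so these libraries are not independent samples. Results are therefore also given without each of them. Proximal tubule (PT)-like cells, named from markers such as Slc34a1 and Lrp2, were 1444 of the 1916 cells.

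Ribosomal proteins assemble with ribosomal RNA in the nucleolus into a small subunit, which reads the mRNA, and a large subunit, which joins amino acids. Their mRNAs are abundant in nearly every cell, and many begin with a terminal oligopyrimidine (TOP) tract, a run of C and T directly at the transcription start through which the kinase mTORC1 controls their translation. In the proximal tubule, mTORC1 is known to respond to nutrients and to act in the growth of the diabetic kidney. Translation of these mRNAs was not measured here.

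The starts of member genes were read from RefSeq promoters (GRCm38.p6), which held 76 starts for 64 of the 84 genes. Each window below runs from 10 bases before the annotated start, and the capitals mark a run of at least 8 consecutive C or T on the strand of the gene that reaches within 5 bases of the start. The first 4 sequences show the run in genes of the large and the small subunit, Rps9 and Rpl31 are members that were lower in PT-like than in distal tubule cells, and Rpl28, Rps19, Rpsa and Rps27l are members that were higher there.
Rpl15, chr14:18270967-18270996, minus strand: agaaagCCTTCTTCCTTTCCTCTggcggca
Rpl35, chr2:39005112-39005141, minus strand: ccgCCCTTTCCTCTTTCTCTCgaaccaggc
Rplp2, chr7:141447641-141447670, plus strand: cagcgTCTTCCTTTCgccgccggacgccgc
Rps18, chr17:33955646-33955675, minus strand: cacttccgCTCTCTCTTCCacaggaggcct
Rps9, chr7:3704031-3704060, plus strand: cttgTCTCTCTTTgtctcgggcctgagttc
Rpl31, chr1:39367841-39367870, plus strand: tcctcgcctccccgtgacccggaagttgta
Rpl28, chr7:4792955-4792984, plus strand: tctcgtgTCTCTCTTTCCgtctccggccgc
Rps19, chr7:24884582-24884611, plus strand: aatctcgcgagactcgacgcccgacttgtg
Rpsa, chr9:120127756-120127785, plus strand: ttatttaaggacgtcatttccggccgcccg
Rps27l, chr9:66946076-66946105, plus strand: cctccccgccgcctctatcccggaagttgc
Of the 76 member starts, 22 had such a run (28.9%), against 8.60% of 20074 starts of other protein-coding genes. With a run counted anywhere in the window, a setting added after the data were seen, the shares were 31.6% (24 starts) and 11.2%. Of the members called between PT-like and distal cells, 1 of the 6 higher ones and 1 of the 2 lower ones with a RefSeq start had the run near it. A C stood exactly at the start in 28.9% of member starts and in 13.9% of the others. Annotated starts can lie some bases away from the start used in kidney, so a window without capitals says only that no such run lies near the annotated start.

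Ribosomal protein mRNA was a small and even part of each library. Members took 3.42% and 3.64% of the UMIs of retained cells in Akita replicates 1 and 2, and 3.50% and 3.54% in wild-type replicates 1 and 2. The wild-type values lay between the Akita values, so the groups overlapped. The mean was 3.53% ± 0.150 (SD, n = 2) in Akita and 3.52% ± 0.0265 (SD, n = 2) in wild type, a difference smaller than the spread within Akita. The order of the groups depended on the cells counted. With each shared barcode kept in 1 file, Akita stood at 3.424% and 3.480% and wild type at 3.485% and 3.538%, without overlap and lower in Akita. In cells of 500 to 2000 UMIs, Akita stood at 3.49% and 3.47% and wild type at 3.32% and 3.17%, without overlap and higher in Akita.

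Levels are given as CPM, the UMIs of a gene scaled to a common total over the retained cells. They are counts of tagged 3′ ends and were not divided by length. The median member stood at 423 CPM over the 4 libraries, and 68 of 82 lay between 200 and 800 CPM. The 20 most abundant members held 39.9% of all member UMIs. Rpl41, a very short basic peptide of the large subunit, was the highest, with 1361 and 1200 CPM in Akita and 1206 and 1354 CPM in wild type. Rplp1, a protein of the acidic stalk that recruits elongation factors, stood at 857 ± 45.1 CPM (SD, n = 4). Rplp1 and Rps29 (834 ± 39.6 CPM) did not differ beyond their spread, whereas Rpl41 lay above both in every library. Others among the 20 ran from Rps2 at 715 ± 22.5 CPM through Rpl13, Rps19, Rpl14, Rpl26, Rpl38, Rps27l, Rpl22, Rpl37a, Rpsa, Rps27a and Rpl36 to Rps23 at 569 ± 19.1 CPM.

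The mRNAs of the stalk proteins, which form 1 complex on the large subunit, were not at the same level. Protein amounts were not measured. Rplp1 stood at 857 CPM, Rplp2 at 423 ± 23.0 CPM and Rplp0, the anchor of the stalk, at 307 ± 38.4 CPM (SD, n = 4 each). Rplp1 was above Rplp2, and Rplp2 above Rplp0, in all 4 libraries.

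**Figure D1:**
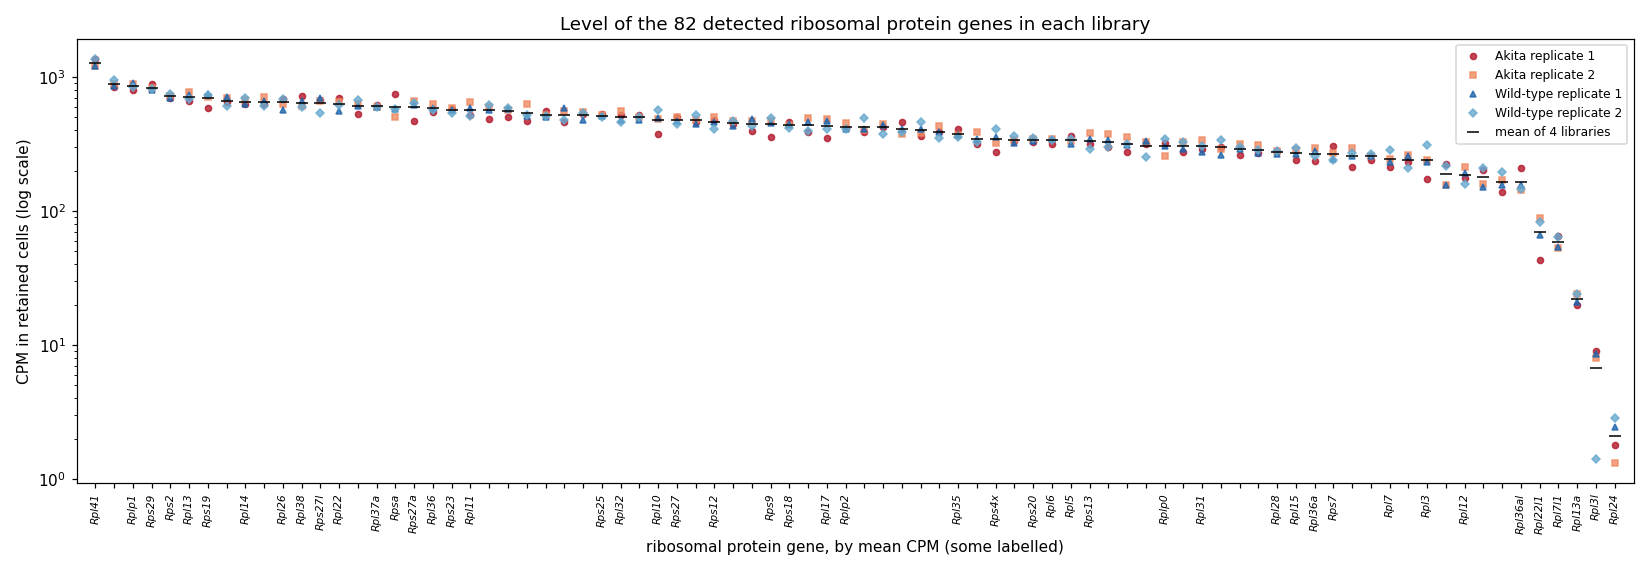
Each of the 82 detected members is 1 position on the x axis, ordered by mean, and the y axis is CPM in retained cells on a log scale; only members named in the text are labelled; symbols are the 4 libraries and the dash is their mean. Most members lie between 200 and 800 CPM, Rpl41 is highest, and the last members fall below 100 CPM.

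At the low end, Rpl24 stood at 2.10 CPM, Rpl3l at 6.73, Rpl13a at 22.2, Rpl7l1 at 58.9 and Rpl22l1 at 70.1 CPM. Rpl24, a large-subunit protein (chromosome 16, 55966275 to 55971435, plus strand, GRCm38), had only 6 UMIs in all 4 files. It overlaps Gm28037 on the same strand, and 81.3% of the 50-base windows at its 3′ end also occur in transcripts of other genes. Rpl13a (chromosome 7, 45125558 to 45128761, minus strand) overlaps 6 genes on its own strand, small nucleolar RNA genes and Gm45713 among them. Whether reads of such genes were dropped in the authors' counting was not tested, so these levels are uncertain. Rpl3l, a paralog of Rpl3 known from heart and skeletal muscle, had 5, 8, 7 and 1 UMIs in the 4 files and no shared window.

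Members that encode paralogous proteins were expressed side by side. Rpl22l1 took the smaller share of its pair, with Rpl22 at 89.7% of their UMIs over all retained cells (95% exact binomial interval 88.3% to 91.0%). For Rpl7 with Rpl7l1, a nucleolar paralog, the partner's share was 80.7% (77.9% to 83.3%), and for Rpl36a with Rpl36al it was 62.6% (59.9% to 65.4%). Rps27l, a paralog of Rps27 that is a known target of p53, was the exception, since it exceeded its partner. Rps27 held 42.9% and 43.0% of the pair's UMIs in Akita and 40.2% and 45.1% in wild type. All of the 3′ windows of Rps27 and 21.9% of those of Rps27l also occur in other genes' transcripts, and the part this plays in the ratio was not tested. These intervals cover counting error only.

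Rps27 and Rps27l were distributed differently over the classes of cells. In PT-like cells Rps27 stood at 457, 456, 440 and 411 CPM (Akita replicates 1 and 2, then wild-type replicates 1 and 2), and Rps27l at 744, 742, 748 and 567 CPM. In the sum of all distal tubule cells Rps27 stood at 606, 511, 508 and 556 CPM, and Rps27l at 412, 431, 477 and 445 CPM. Rps27l was thus the higher of the pair in PT-like cells, and Rps27 in the distal sum, in every library. Rps27's share of the pair was 38.1%, 38.1%, 37.0% and 42.0% in PT-like cells and 59.5%, 54.2%, 51.6% and 55.6% in the distal sum, with no overlap. Among single distal classes, Rps27 was the higher in every library only in intercalated-like cells. Rps27l was the higher in unnamed distal cells of Akita replicate 2 (35 against 30 UMIs) and Wild-type replicate 1 (37 against 31). It was also the higher in loop of Henle-like (8 against 5) and connecting tubule-like cells (4 against 3) of Wild-type replicate 2. In DCT-like cells of Akita replicate 1 it had 3 UMIs against 0. The pair was equal in DCT-like cells of Akita replicate 2 (6 each) and Wild-type replicate 2 (3 each). Equal counts also occurred in connecting tubule-like cells of Wild-type replicate 1 (7 each). Within PT-like cells, Rps27 was the higher in S3-like cells of Wild-type replicate 2 (32 against 29). In the 13 macrophage or dendritic-like cells Rps27 had 44 UMIs and Rps27l 1, a share of 97.8% (88.2% to 99.9%), and the single Rps27l UMI came from Wild-type replicate 2.

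**Figure D2:**
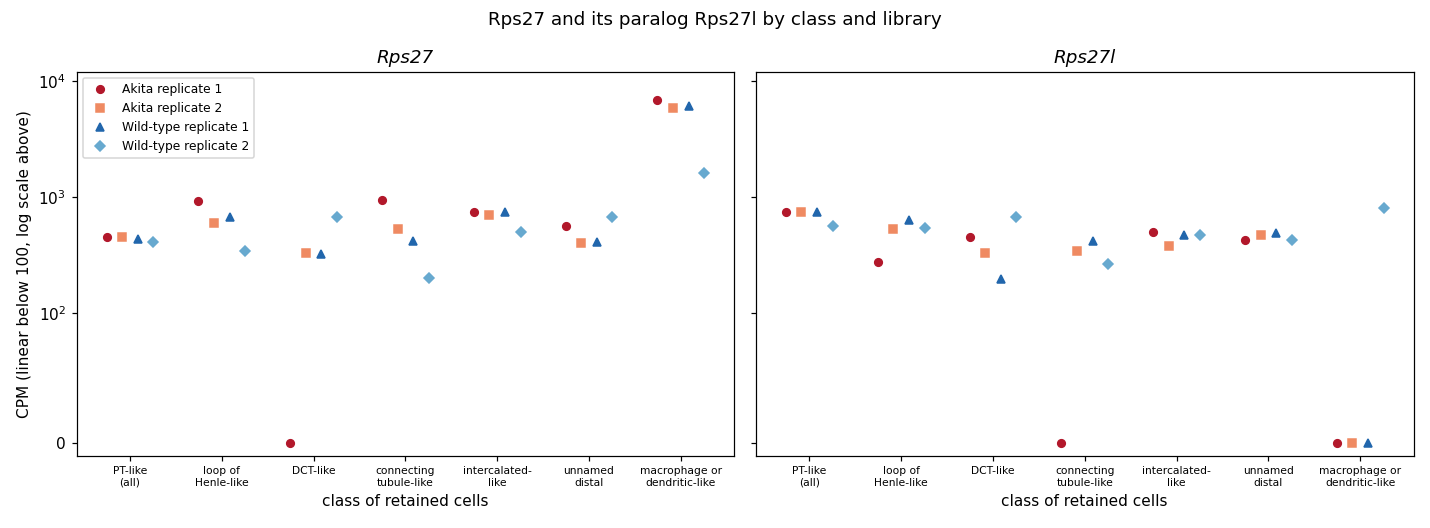
The panels show Rps27 and Rps27l; the x axis gives the class of cells and the y axis CPM, linear below 100 and on a log scale above, with 1 symbol per library. Rps27l is higher than Rps27 in PT-like cells of every library. In macrophage or dendritic-like cells Rps27 reaches 6823 CPM, which is 7 UMIs in the 1 cell of Akita replicate 1. Rps27l is at 0 there in 3 of 4 libraries, whose totals of 1026 to 4055 UMIs leave its level uncertain.

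Over the classes of tubule cells the summed share of member UMIs varied little. It was 3.52% ± 0.0524 in PT-like cells, 3.31% ± 0.251 in loop of Henle-like cells, 3.39% ± 0.474 in connecting tubule-like cells, 3.47% ± 0.301 in intercalated-like cells and 2.76% ± 0.297 in distal convoluted tubule (DCT)-like cells (SD, n = 4 libraries each). The DCT-like value was the lowest of these 5. Its highest library, at 3.11%, overlapped the lowest libraries of the loop of Henle-like, connecting tubule-like and intercalated-like classes. It did not overlap those of PT-like cells as a whole. The S1-like and S3-like parts of the PT-like cells, described below, did overlap it, with lowest libraries at 2.78% and 2.74%. The DCT-like class held only 6 to 22 cells per library. The shares are of all UMIs, mitochondrial ones included. The pooled median of mitochondrial UMIs per cell was 19.3% in PT-like, 26.5% in loop of Henle-like and 24.9% in connecting tubule-like cells. It was 15.8% in intercalated-like and 15.4% in DCT-like cells, and its part in the shares of these classes was not tested. Malat1, a nuclear RNA, stood at 54984 CPM in pooled DCT-like, 21102 CPM in intercalated-like and 8820 CPM in connecting tubule-like cells. It stood at 17888 and 3443 CPM in the loop of Henle-like clusters. The part of nuclear RNA in the shares of these classes was not tested either. The clusters were made without the member genes, but the naming of classes was settled with the member share in view for some versions, and the DCT-like class is the one whose size moved most between them.

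The macrophage or dendritic-like cluster stood apart, with 11.5%, 14.5%, 15.3% and 7.29% of its UMIs on members. It rested on 1, 7, 3 and 2 cells, 13 in all with 8106 UMIs, and its pooled share was 13.2% (95% exact interval 12.5% to 13.9%). Every library's value exceeded every value of a tubule class. The class depends on the clustering: at resolution 0.5, at resolution 2 and with member genes in the clustering, 0 cells were named macrophage or dendritic-like, so its values describe 13 cells found at resolution 1 without those genes. Antigen-presentation genes (Cd74, H2-Ab1) led this cluster, but so did Il7r and Ms4a4b, which are known from lymphocytes, so it is not a pure class. All 8 lymphocyte markers in the files had UMIs in it, at a summed 3578 CPM. So did all 9 macrophage or dendritic markers, at a summed 29238 CPM. Most members were higher in it, with no test made: of 79 with at least 100 UMIs in PT-like cells, 74 had a higher CPM there, with a median ratio of 3.25. Of all 2992 genes with as many UMIs in PT-like cells, 32.0% had a higher CPM there, but 1682 of them had 0 UMIs in the cluster, and the genes were not matched on level. Besides Rps27 (12.3 times), Rps20 (9.27 times) and Rpl12 (8.38 times) had the highest ratios. Rps27l, with 1 UMI, had a ratio of 0.176 (95% exact interval 0.00446 to 0.983), Rpl35, with 1 UMI, 0.334 (0.00845 to 1.87) and Rpl28, with 2 UMIs, 0.849 (0.103 to 3.08). Rpl36al and Rpl7l1 had 0 UMIs, which allows up to 370 CPM (3 counts), above their 169 and 61.9 CPM in PT-like cells, so no ratio is given.

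**Figure D3:**
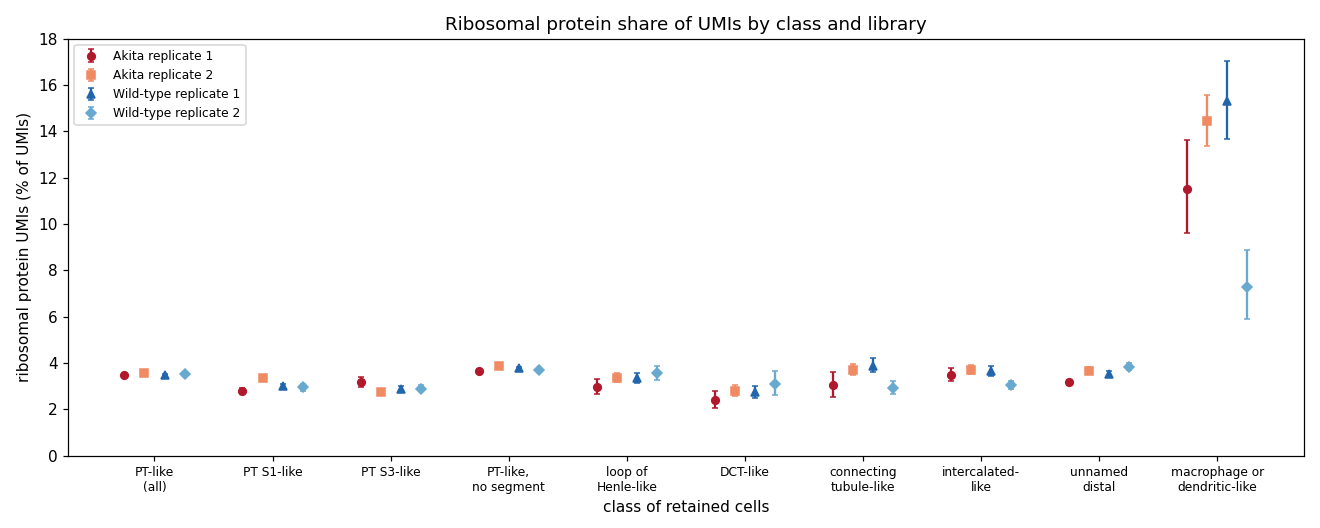
The y axis is the percent of UMIs on ribosomal protein genes and the x axis the class of retained cells; each symbol is a library and bars are 95% exact binomial intervals, which cover counting error only. Tubule classes lie between 2.39% and 3.89%, and the macrophage or dendritic-like cells between 7.29% and 15.3%.

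Within the proximal tubule, clusters differed more than segments did. S1-like cells, named for the first, most active stretch of the tubule, had 3.02% ± 0.233 of UMIs on members (SD, n = 4). S3-like cells, named for its straight end, had 2.92% ± 0.184, and the ranges overlapped. No cluster was named for the S2 segment between them. In S3-like cells S2 markers summed to 3989 CPM and S3 markers to 3764 CPM, against 2354 and 1238 CPM in S1-like cells, so S2 cells may be among the S3-like ones. The PT-like cells without a segment had 3.76% ± 0.0946, above S1-like and S3-like cells in every library. Their pooled medians were 1362 UMIs and 14.5% mitochondrial UMIs per cell. These were 692 UMIs and 25% in S1-like and 603 UMIs and 24.0% in S3-like cells. Among the cells without a segment, a cluster of 222 cells was led by Gatm, an enzyme of creatine synthesis. It had 5.38%, 4.93%, 4.89% and 4.24%, with a median of 539 UMIs and 14.0% mitochondrial UMIs per cell. The lowest over the pooled cells was an S1-like cluster of 150 cells led by Slc5a12, a lactate transporter, with 2.35%, 2.69%, 2.53% and 2.90%. In Wild-type replicate 2 another cluster, without a segment, was lower at 2.63%. Over the pooled cells, the nuclear RNA Malat1 stood at 42182 CPM in the Slc5a12 cluster and at 10672 CPM in the Gatm cluster. In the cluster that was lower in Wild-type replicate 2, Malat1 stood at 5254 CPM. The part of nuclear RNA, of mitochondrial RNA and of depth in these shares was not tested.

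Individual members differed between PT-like and distal cells, with a fitted difference of up to 1.88-fold among those tested. This comparison sums all distal tubule cells (loop of Henle-like, DCT-like, connecting tubule-like, intercalated-like and the unnamed cells split from the same cluster) per library, and was added after the data had been seen. Of 79 members tested with edgeR's quasi-likelihood test, with library as a block, 9 were higher and 3 lower in PT-like cells at an adjusted p under 0.05. That is 15.2% of members, while 48.2% of all 4290 genes tested were called, 24.2% higher and 24.0% lower. The median log2 difference was 0.04 for members and −0.03 for all genes. None of the 12 members called had a fitted difference as large as 2-fold.

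Rps19, a small-subunit protein needed to mature its ribosomal RNA, showed the largest difference. It stood at 688, 789, 800 and 804 CPM in PT-like cells and at 226, 447, 527 and 471 CPM in distal cells, without overlap. Its log2 difference was 0.91 ± 0.14 (SE), with an edgeR adjusted p of 0.000116. In 56.6% of its 3′ windows the sequence also occurs in other genes' transcripts, mostly pseudogenes. Rps27l was next, at a log2 difference of 0.68 ± 0.12 (edgeR adjusted p 0.000366), and its libraries did not overlap either.

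Rpsa, the small-subunit protein also known as the laminin receptor, stood at 820, 511, 593 and 613 CPM in PT-like cells and at 477, 442, 490 and 425 CPM in distal cells (log2 difference 0.46 ± 0.13, edgeR adjusted p 0.00756). Akita replicate 1 was highest among the PT-like values, and the groups did not overlap. Rpl32 (0.50 ± 0.12, edgeR adjusted p 0.00311) and Rpl17 (0.54 ± 0.14, edgeR adjusted p 0.00446), both of the large subunit, were higher in PT-like cells in 4 of 4 libraries. Rps23, Rpl28 and Rps25 were also higher, by 0.34 to 0.38 on the log2 scale, again in 4 of 4 libraries.

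The 3 members lower in PT-like cells were Rpl3, Rps9 and Rpl31. Rpl3, a large-subunit protein near the peptidyl transferase centre, stood at 175, 204, 211 and 280 CPM in PT-like cells and at 170, 346, 322 and 432 CPM in distal cells (log2 difference −0.53 ± 0.14, edgeR adjusted p 0.00755). In Akita replicate 1 it was no lower in PT-like cells, and the groups overlapped. Rps9, which binds ribosomal RNA early in the assembly of the small subunit, stood at 330, 424, 394 and 478 CPM against 412, 596, 669 and 550 CPM (−0.43 ± 0.13, edgeR adjusted p 0.0111). Rpl31 had a log2 difference of −0.35 ± 0.13 (edgeR adjusted p 0.0392).

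Without Akita replicate 2 or without Wild-type replicate 1, 7 members were called each time, all higher in PT-like cells. Rps19, Rps27l, Rpl32, Rpl17 and Rpsa were called in both cases, and Rpl3, Rps9 and Rpl31 in neither. Without TMM scaling 7 members were higher and 7 lower, and DESeq2 called 4, all higher. PT marker genes summed to 68911 CPM in PT-like and 8940 CPM in distal cells, so RNA from other cells was present in the distal sums, and its part in these differences was not tested.

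**Figure D4:**
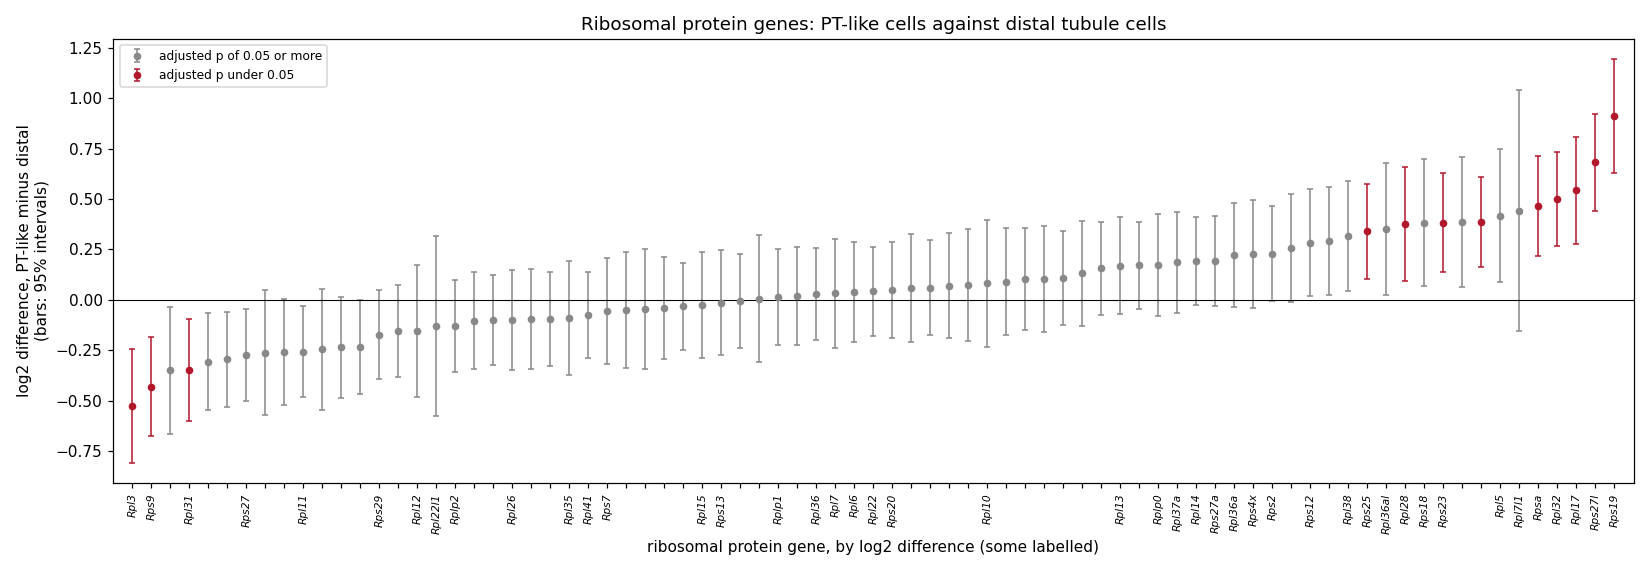
The x axis lists the 79 tested members by their log2 difference, PT-like minus distal tubule cells, shown on the y axis with bars for 95% intervals and names for the members described in the text; red marks an adjusted p under 0.05. The differences centre near 0, with Rps19 at 0.91 and Rps27l at 0.68 at the upper end and Rpl3 at −0.53 at the lower end.

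Against the loop of Henle-like cells alone (15 to 37 cells per library), 13 of 79 members were higher and 1 lower in PT-like cells, 17.7% of members against 32.8% of all 3048 genes (23.1% higher, 9.74% lower). The median log2 difference was 0.29 for members and 0.49 for all genes, so most genes leaned the same way and values are to be read against that shift. Rps27a, which encodes a small-subunit protein fused to ubiquitin, had the largest difference (1.38 ± 0.31 on the log2 scale, edgeR adjusted p 5.58e-05). It stood at 490, 672, 614 and 656 CPM in PT-like cells and at 0, 331, 357 and 206 CPM in loop of Henle-like cells. Rps12 (1.21 ± 0.32), Rpl38 (1.18 ± 0.29), Rpl28, Rps13, Rpl13, Rpsa, Rpl6, Rpl32, Rps19, Rpl22 and Rps23 were among the others that were higher, and Rpl31 was lower (−0.68 ± 0.28, edgeR adjusted p 0.0421). Without Akita replicate 2 or without Wild-type replicate 1 the count was 6, all higher; Rps27a, Rps12, Rpsa and Rps19 were among those called in both cases. Without TMM scaling 8 were higher and 3 lower. In the naming versions with no cluster split or a split at resolution 0.5, 0 cells were named loop of Henle-like. The comparison does not exist there.

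Intercalated-like and DCT-like cells fell below the minimum of 10 cells in at least 1 library, so the intended tests were not made. With a minimum of 5 cells, chosen after the data were seen, 24 of 79 members were higher and 0 lower in PT-like than in intercalated-like cells (37.0% of 3520 genes called, 23.7% higher and 13.3% lower), and 23 higher and 0 lower than in DCT-like cells (24.2% of 3038 genes, 19.9% higher and 4.31% lower). Without TMM scaling these became 3 higher and 7 lower, and 4 higher and 0 lower. No direction is drawn from either comparison.

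Between PT S1-like and S3-like cells, 4 of 73 members were higher in S1-like cells and 1 lower, 6.85% of members against 19.8% of 920 genes (10% higher, 9.78% lower). Rpl5, which with Rpl11 carries the 5S ribosomal RNA and can bind Mdm2, stood at 330, 394, 317 and 300 CPM in S1-like and at 137, 138, 150 and 246 CPM in S3-like cells (log2 difference 0.98 ± 0.27, edgeR adjusted p 0.0061). Rplp0 (0.95 ± 0.28), Rpl36a (0.81 ± 0.27) and Rpsa (0.57 ± 0.20) were higher too. Rpl11 had the opposite sign, at 165, 498, 465 and 300 CPM against 515, 601, 586 and 461 CPM (−0.59 ± 0.22, edgeR adjusted p 0.0442), with overlapping groups. None of the 5 was called without Akita replicate 2, and DESeq2 called 0 members. Without TMM scaling 5 members were higher and 0 lower.

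No member passed the test between Akita and wild-type libraries. Of 80 members tested over all retained cells, 0 were called by edgeR, by DESeq2 or under any alternative run, and 0 had an unadjusted p under 0.05. Of all 7169 genes 0 were called (0% of the genes tested), and 68 had an unadjusted p under 0.05. The median log2 difference was 0.02 for members, and the half-width of a member's 95% interval had a median of 0.41. A change by less than about that size was not detectable here. A larger one could be missed too, since a call had to pass the adjustment over 7169 genes. In simulated counts at these depths, with a spread set in advance and not estimated from these libraries, 45 of 200 genes changed 2-fold were recovered.

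The members of smallest p in each direction did not pass the test. Rps4x, an X-linked small-subunit protein, stood at 276 and 323 CPM in Akita and at 357 and 411 CPM in wild type (log2 difference −0.35 ± 0.21). Rpl3 stood at 174 and 240 CPM against 234 and 313 CPM (−0.38 ± 0.23), with overlap, and Rpl10, whose joining is a late step in the maturation of the large subunit, at 373 and 488 CPM against 498 and 562 CPM (−0.29 ± 0.22). In the other direction were Rps7 (307 and 273 CPM against 246 and 242 CPM, 0.24 ± 0.20), Rpl22 (0.19 ± 0.20) and Rpl32 (0.19 ± 0.20). All had an edgeR adjusted p of 1.00.

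The groups did not overlap for 19 of 80 members, 23.8%, against 23.6% of all genes, and for 20 of 80, 25%, against 29.6% with each shared barcode kept in 1 file. In PT-like cells alone, 0 of 80 members and 0 of 6096 genes were called (0% of the genes tested; 56 genes and 0 members at an unadjusted p under 0.05). The groups did not overlap for 17 of 80 members, 21.2%, against 22.9% of all genes, and for 27 of 80, 33.8%, against 29.4% with each shared barcode kept in 1 file. There the smallest p values were again those of Rpl3 (−0.36 ± 0.24), Rps4x (−0.33 ± 0.23) and Rpl10 (−0.33 ± 0.23) on the lower side, and of Rps7 (0.27 ± 0.22), Rpl32 (0.23 ± 0.22) and Rps12 (0.23 ± 0.23) on the higher. Rps27l (0.10 ± 0.22 over all cells) and the stalk proteins Rplp0 (−0.18 ± 0.20), Rplp1 (−0.06 ± 0.21) and Rplp2 (0.10 ± 0.20) did not pass either.

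**Figure D5:**
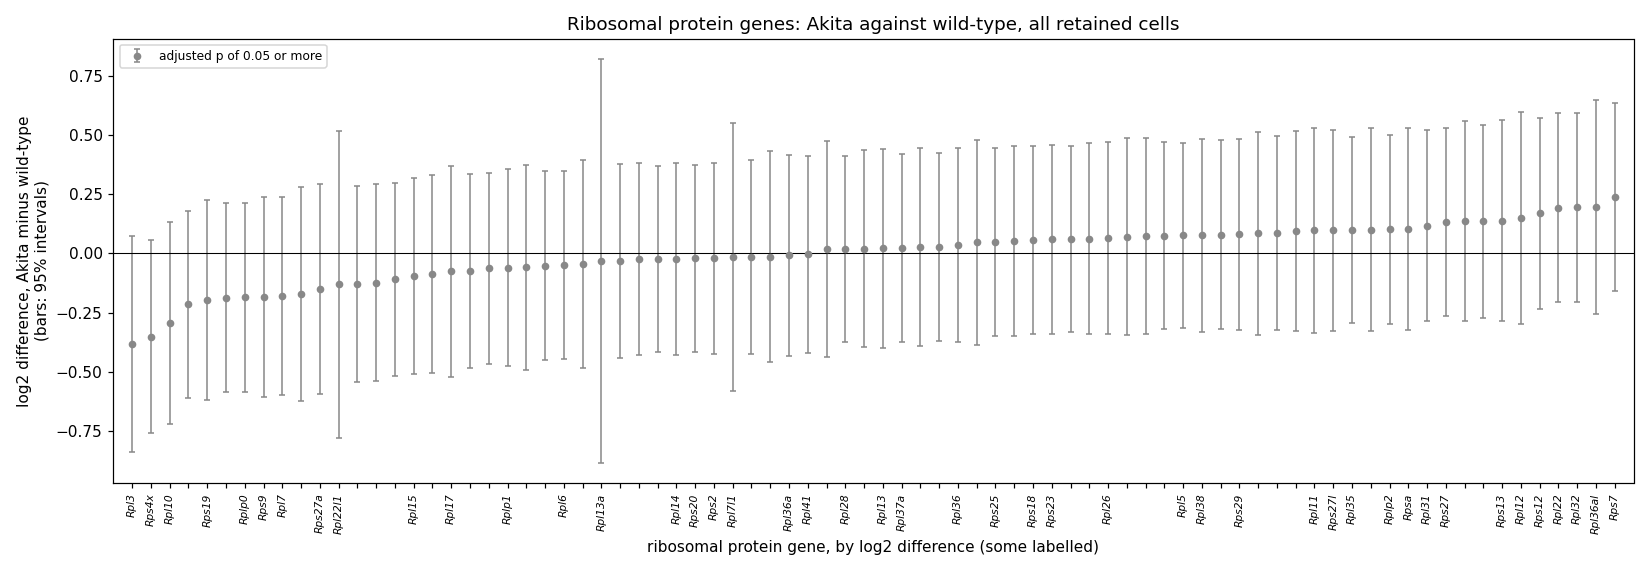
The x axis lists the 80 tested members by their log2 difference, Akita minus wild-type over all retained cells, shown on the y axis with bars for 95% intervals and names for the members described in the text. Every bar crosses 0, and Rpl3 at −0.38 lies lowest and Rps7 at 0.24 highest.

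Other genes of the translation machinery were compared through lists of elongation factors and companions, mitochondrial ribosomal proteins and ribosome biogenesis factors. In PT-like against distal cells, 5 of 16 elongation factors and companions (31.2%) were higher and 0 lower, against 48.2% of all genes called (24.2% higher, 24.0% lower). Tpt1, whose mRNA has a TOP tract, stood at 726 ± 145 CPM in PT-like and 296 ± 68.7 CPM in distal cells (SD, n = 4), a log2 difference of 1.33 ± 0.13. Pabpc1, the poly(A)-binding protein (0.61 ± 0.14), Eef1a1, which delivers aminoacyl-tRNA to the ribosome (0.55 ± 0.12), Fau, the precursor of a small-subunit protein (0.54 ± 0.13), and Rack1, a scaffold on the small subunit (0.37 ± 0.14), were the others. Of 71 mitochondrial ribosomal proteins, which make up the separate ribosome of mitochondria, 4 were higher and 13 lower in PT-like cells, 23.9% in all. Mrps6 differed most, at 39.3 ± 13.2 CPM in PT-like and 271 ± 83.9 CPM in distal cells. Of 8 ribosome biogenesis factors, 1 passed (12.5%), Nhp2 of the box H/ACA particles, which was higher in PT-like cells (1.19 ± 0.26). Between Akita and wild type, 0 of 17, 0 of 76 and 0 of 14 genes of these lists passed over all retained cells.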

How the data were processed

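Each deposited file is the authors' raw count table, listing UMIs by gene identifier and barcode. Alignment to GRCm38 and counting used STAR 2.5.2b, featureCounts 1.6.0 and UMI-tools 0.5.3, per the submitters' processing notes. How reads matching several genes were treated is not given in the sources used here. The members, lists and tests were chosen with earlier results of these data known.

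Barcodes with at least 200 genes and at most 50% mitochondrial UMIs were retained, and 4 strings per file that were no barcodes were left out. Cells were clustered with scanpy 1.11.5 and leidenalg 0.10.2 (2000 variable genes, 30 components, 15 neighbours, resolution 1) without member genes and their pseudogenes. Clusters were named from at least 3 class markers among the top 50 genes by fold (pseudocount 50 CPM). Doublets were not removed. The markers stayed as listed, but 5 versions of the naming procedure were tried, and the one used, which splits clusters of at least 100 cells holding markers of a second class, was picked after class sizes, leading genes and, for some versions, the ribosomal protein share per class had been seen. The border between loop of Henle-like and DCT-like cells moved between versions. DCT-like cells numbered 53 in the version used and 83, 286 and 96 in 3 others. Loop of Henle-like cells numbered 104 in the version used and 104, 0 and 0 in those 3, so this class depends on the naming. The closing section gives the effect of these versions. The remaining version was not rerun.

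Counts were summed per library and class and tested with edgeR 4.0.16 in R 4.3.3 (TMM, filterByExpr, quasi-likelihood, two-sided, Benjamini-Hochberg over all genes tested, threshold 0.05), with library as a block between segments. A class needed 10 cells in every library; the fits with 5 cells, the sum of all distal cells, the crossed block and cells of 500 to 2000 UMIs were added after results were seen. DESeq2 1.42.0 was the other tool. The mice are separate, but with shared barcodes the p-values treat 2 libraries as more independent than they are. Same-numbered libraries deviated from their group means with a correlation of −0.22 across genes, and nothing in the labels pairs them. The fits were tested on simulated data. Genes named were the 20 most abundant members, called members (up to 10 per direction, at least 50 CPM) or else the 3 of smallest p per direction, the stalk proteins, paralogs with their partners and the 5 lowest members; beyond this, called members of the segment comparisons and members at the ends of a ratio were named after their values were seen. Some members that the rule names are counted but not reported by name here. Rpl3l and Rpl24 did not pass the filter on low counts in any fit, nor Rpl13a between PT-like cells and the distal classes. Between S1-like and S3-like cells 73 members passed it. Shared 3′ windows are runs of 50 bases in the last 300 bases of the principal transcript, a choice of transcript changed once after a first table was seen.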

Additional observations from a re-analysis of the deposited data

Results flagged for a closer look

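For 3 members the difference between PT-like and distal cells had one sign in both Akita libraries and the other sign in both wild-type libraries; whether the genotypes differ was not tested. That is 3 of the 79 members tested between these cells (3.80%), against 2.94% of all 4290 genes tested. On the log2 scale with 10 CPM added, Rps26 stood at -0.08 and -0.17 in Akita and at 0.09 and 0.47 in wild type, a difference of -0.403 between the group means. Rpl27a stood at 0.07 and 0.02 in Akita and at -0.06 and -0.16 in wild type, a difference of 0.159, and Rpl7 at 0.05 and 0.23 against -0.10 and -0.15, a difference of 0.267. Features annotated as ribosomal protein pseudogenes, which no comparison uses, held 8687 UMIs in the retained cells of the 4 libraries (1729 to 2417 per library), over 246 features. Rpl14-ps1 held the most, 579 UMIs, followed by Rps19-ps6 with 402.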

How the results depend on the processing

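Between Akita and wild type the number of members called was 0 under every setting that was run, including the replicate block (0) and a crossed block pairing Akita replicate 2 with Wild-type replicate 1 (0). The crossed block was added because of the negative correlation between same-numbered libraries. Rpl10, which did not pass, changed sign among cells of 500 to 2000 UMIs, to 0.093 over all cells and 0.090 in PT-like cells.

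The counts of members called between segments depended on the settings, and the cause was not tested. Of 79 members, PT-like against all distal tubule cells gave 12, but 4 with DESeq2, 28 with no filter on low counts, 19 with at most 25% mitochondrial UMIs per cell and 7 to 15 with a library left out. PT-like against loop of Henle-like cells gave 14, but 6 with DESeq2, 42 with no filter, 8 with member genes in the clustering and 6 to 18 with a library left out. PT S1-like against S3-like cells gave 5, but 0 with DESeq2, 1 with no filter, 0 with at least 500 genes per cell, 8 with at most 25% mitochondrial UMIs, 1 with each shared barcode kept in 1 file, 3 with no replicate block and 0 to 7 with a library left out. The intercalated-like comparison, with its lowered minimum of cells, gave 24, but 8 with DESeq2, 10 without TMM, 64 with no filter, 14 without mitochondrially encoded genes, 15 with member genes in the clustering and 10 to 21 with a library left out. The DCT-like comparison gave 23, but 15 with DESeq2, 4 without TMM, 66 with no filter, 14 with each shared barcode kept in 1 file, 41 with member genes in the clustering, 11 at resolution 0.5 and 1 to 34 with a library left out. Under the naming versions that were not used it gave 11 (clusters of 50 or more cells split), 15 (no split) and 13 (split at resolution 0.5). Those versions sum the same cells as distal, so the count for all distal cells could not change. With no split or a split at resolution 0.5, the loop of Henle-like class held 0 cells, so its comparison could not be run.

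Too few cells remained in a class for the loop of Henle-like comparison at 500 genes, at 25% mitochondrial UMIs, with shared barcodes left out or kept in 1 file, at resolutions 0.5 and 2 and in cells of 500 to 2000 UMIs, and several of these could not be run for the other segments either. The mean share of member UMIs, 3.52%, became 2.60% over every deposited barcode, 3.62% with at least 500 genes, 3.77% with at most 25% mitochondrial UMIs, 4.36% outside mitochondrially encoded genes, 3.36% without the shared barcodes, 3.84% with pseudogene features added and 3.36% in cells of 500 to 2000 UMIs, and ranged from 3.49% to 3.56% with a library left out.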
